A study of Danio rerio with 18 samples.

Results

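Zebrafish cells sorted as retinal ganglion cells 24 hours after optic nerve transection (24 hpi) were compared with cells sorted the same way from uninjured eyes of the same time point. The comparison used 6 of the 18 libraries of the series, 3 injured and 3 control. All libraries came from adult fish of 3 to 5 months that carry isl2b:GFP, a transgene in which green fluorescent protein marks retinal ganglion cells. Injured libraries are those with the optic nerve cut, and controls are contralateral eyes that were not operated, so every group shares the reporter and each control eye belonged to a fish with an injured eye. Libraries of the same 2 kinds from 6 and 12 hpi, 3 per group, served to estimate the spread between libraries and to set the 24 hpi values beside other controls. For each library 1000 fluorescent cells were sorted by flow cytometry from dissociated eyes and their polyadenylated RNA was amplified. The labels do not say whether replicates came from separate fish, so p-values measure the spread between these libraries, which may be technical.

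Retinal ganglion cells are the output neurons of the eye, and their axons form the optic nerve. In mammals most of them do not regrow a cut axon and many die, whereas zebrafish ganglion cells survive in large part and reinnervate the brain. The response of an injured neuron is known to begin with retrograde stress signals and cytokine signals through JAK/STAT, which switch on transcription factors such as Atf3, Jun, Stat3 and Sox11. Genes for growth cone proteins follow, while genes for synaptic transmission and for the identity of the mature neuron are often turned down.

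The content of the libraries was examined first. Ganglion cell markers, a list of 50 genes with the factors isl2b and pou4f2 and the RNA-binding proteins rbpms2a and rbpms2b, took 0.402, 0.452 and 0.350% of all counts in control libraries and 0.198, 0.207 and 0.326% in injured libraries. Means were 0.401 ± 0.0509% and 0.244 ± 0.0718% (SD, n = 3 each), and each injured library lay below each control (two-sided exact permutation p = 0.1, the smallest that 3 against 3 libraries can give, and 0.433 after adjustment over 13 cell lists). Injured replicate 3 held the most marker RNA of the injured libraries. The ganglion cell score, the mean log2 CPM (counts scaled to a common library size with TMM factors) of the 48 tested markers, was 5.00 ± 0.236 in control and 3.94 ± 0.434 in injured libraries, a difference of -1.06 (exact permutation p = 0.1). The reporter's own driver isl2b (ENSDARG00000053499, chromosome 7, 29992889 to 29997444, plus strand) had 291, 282 and 224 CPM in the controls and 39.6, 42.2 and 101 CPM after injury, and all injured values lay below all 24 hpi controls. Its 6 and 12 hpi controls ran from 33.5 to 245 CPM, a range that holds all injured values. The edgeR adjusted p of its 24 hpi difference was 0.538. In bulk samples fewer cells of a type and less RNA per cell cannot be told apart.

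Rod and cone genes took far more of the counts than ganglion cell markers, so the label does not cover all of the RNA in these libraries. The lists differ in how abundant their genes are, so shares of counts do not give the part of each cell type. The 62 rod and cone genes held 27.2, 27.5 and 27.5% of counts in controls and 30.9, 31.5 and 31.2% in injured libraries, a difference of 3.84 percentage points with no overlap (exact permutation p = 0.1), and of 1.60 points with opsins left out of the list. Log2 changes are injured minus control at 24 hpi with their standard error, and adjusted p-values come from edgeR unless another tool is named. Levels are given for replicates 1, 2 and 3, controls before injured libraries. The 14 rod genes took 21.3 ± 0.483% of control and 24.2 ± 0.743% of injured counts (SD, n = 3 each), and 13 of 14 had a positive fold change, against 51.4% of all genes tested. The 22 cone genes took 0.890 ± 0.380% and 0.757 ± 0.182%, with overlapping groups, and 4 of 22 had a positive fold change. This split into rods and cones was chosen after the values were seen. Other cell types took smaller shares. Bipolar cell genes held 1.03 ± 0.0337% of control and 0.920 ± 0.209% of injured counts, and Mueller glia genes 0.305 ± 0.0448% and 0.319 ± 0.0383%. Macrophage and microglia genes held 0.0401 ± 0.0267% and 0.0368 ± 0.0175%, and 9 of their 36 genes had no count in any of the 6 libraries. Amacrine cell genes held 0.0875 ± 0.0139% and 0.0253 ± 0.00426%, with no overlap (exact permutation p = 0.1). Most of this share came from calb2a, calb2b, pax6a and pax6b, which ganglion cells are known to express as well. Each gene comparison below moves beside these shares, and their part in it was not tested.

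**Figure D1:**
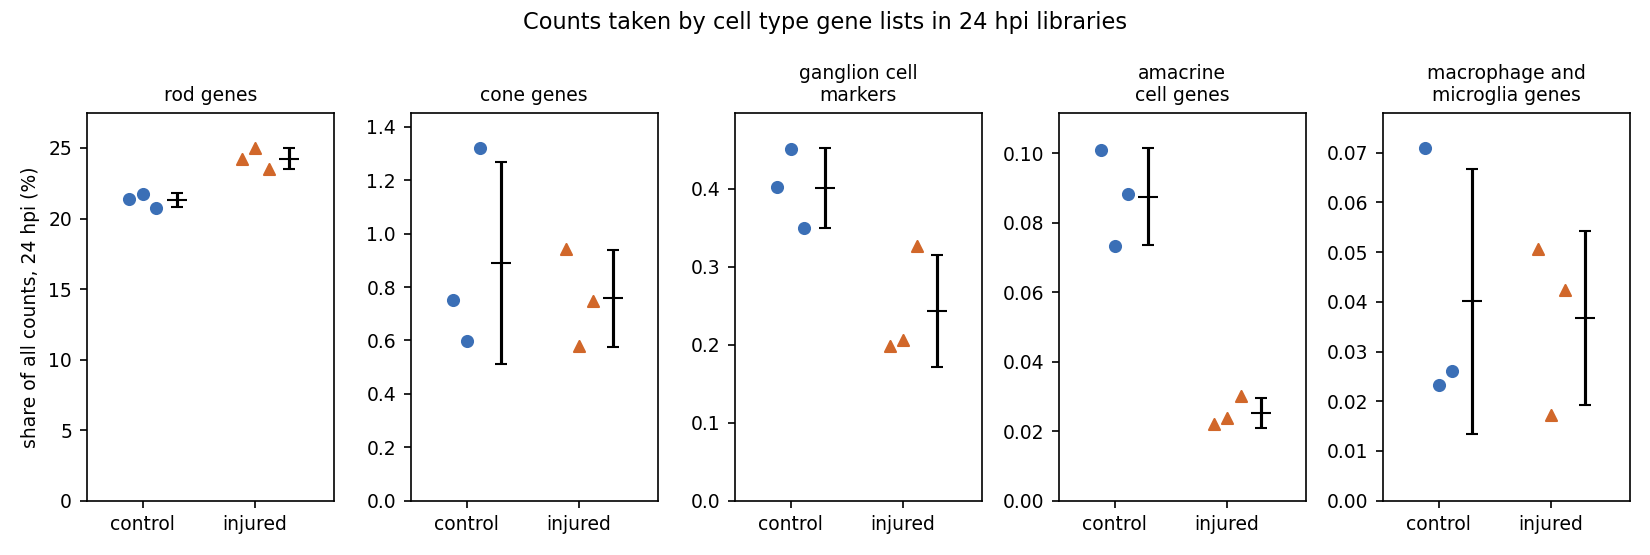
Share of all counts (percent, separate axes from 0) taken by rod genes, cone genes, ganglion cell markers, amacrine cell genes, and macrophage and microglia genes in the 24 hpi libraries; points are libraries, black marks the mean and SD (n = 3). Rod genes lie higher and ganglion cell and amacrine genes lower in all 3 injured libraries, while cone and macrophage genes overlap between groups. Most counts of the amacrine list fall in genes that ganglion cells also express.

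Controls at 24 hpi had 15490375 to 24963959 counts in total and injured libraries 25370841 to 26245100. Control replicate 1 had the fewest. By the run of sample numbers in the library names, injured replicate 3 and control replicate 1 belong to library set 1. The other 24 hpi libraries belong to set 2. What the sets are is not stated, and a deviation of either set 1 library cannot be told apart from library set. The biological coefficient of variation over all 18 libraries was 0.517. With edgeR's quasi-likelihood test on the 18 libraries, 0 of 17527 genes passed an adjusted p of 0.05 (0% of genes tested), and the smallest adjusted p was 0.0986. At an unadjusted p under 0.05, 594 genes were higher in injured libraries (3.39% of genes tested) and 892 lower (5.09%). Non-overlapping groups were found for 1376 genes with higher injured values (7.85%) and 1472 with lower (8.40%). Beyond all 9 control libraries of the 3 time points, the injured libraries were higher in 502 genes (2.86%) and lower in 324 (1.85%). The count of called genes depended on the method. The same test fitted to the 6 libraries of 24 hpi alone called 50 of 15465 genes, 5 higher (0.0323%) and 45 lower (0.291%). DESeq2 on all 18 libraries called 210 of 16399, 46 higher (0.281%) and 164 lower (1.00%), and 27 genes were called by both. Of the 50 genes, 47 also had an unadjusted p under 0.05 in the 18-library fit. Without injured replicate 3 the 6-library fit called 243 genes, and without any 1 control it called 0. With replicate number as a block it also called 0 (smallest adjusted p 0.0653). Calls are therefore given with their method, and a call by 1 method is not a call by the others. The 15 higher and 15 lower genes described below are those with the smallest p among genes with non-overlapping groups, a mean level (log2 CPM) not under 3 and no single library with more than 90% of its group's level. Further genes come from the fixed lists, whatever their overlap. Statements on overlap refer to the 24 hpi controls unless other controls are named. The counts of list members stand against 3.39% higher and 5.09% lower over all genes at an unadjusted p under 0.05. Counts of members with a positive fold change stand against 51.4% of all genes.

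**Figure D2:**
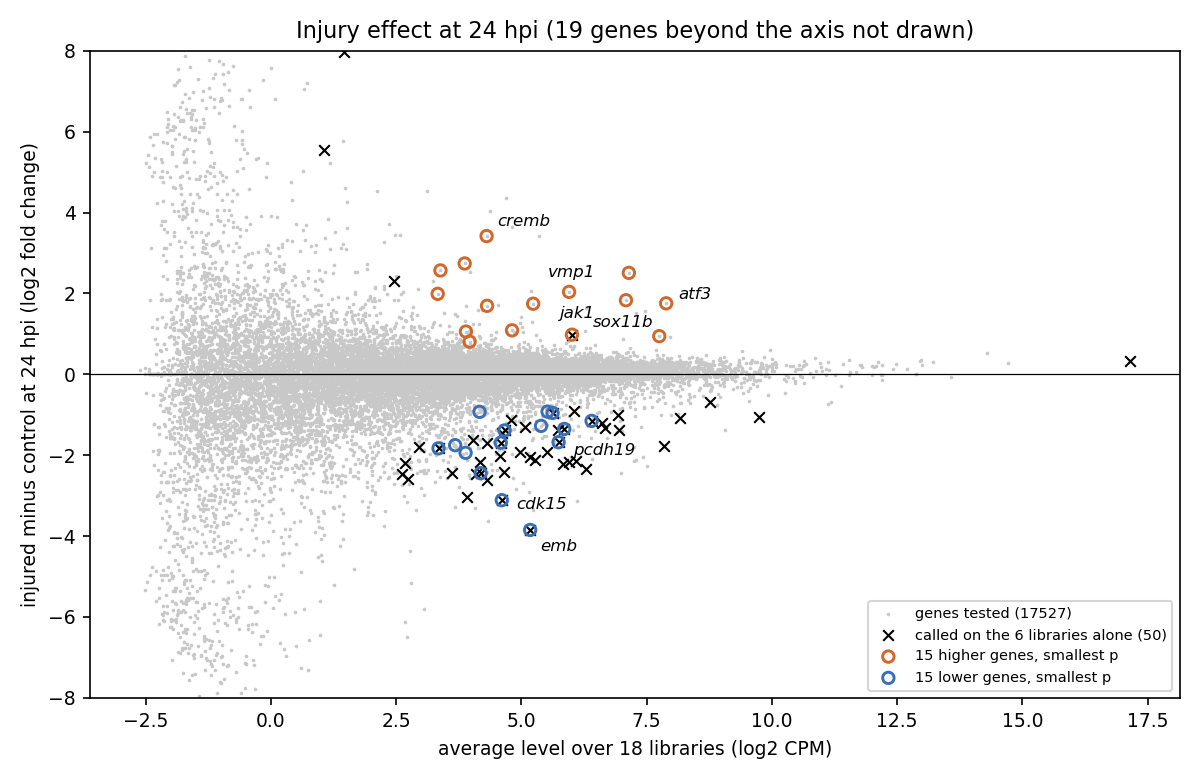
Injured minus control log2 change at 24 hpi against the average level over 18 libraries (log2 CPM) for the 17527 genes tested; crosses are the 50 genes called on the 6 libraries alone, circles the 15 higher and 15 lower genes with the smallest p. Most crosses lie below 0, as 45 of the 50 were lower in injured libraries.

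Injury-response transcription factors stood among the genes with higher injured values. The gene atf3 (ENSDARG00000007823, chromosome 20, 37794633 to 37800737, plus strand), a stress-induced factor of the bZIP family and a classic marker of axotomised neurons, had 136, 184 and 144 CPM in the controls and 564, 211 and 792 CPM after injury. All 3 injured libraries lay above all 9 controls, injured replicate 2 by the least, at a mean of 155 ± 25.9 CPM in controls and 523 ± 293 CPM after injury (log2 change 1.75 ± 0.38, adjusted p = 0.160, DESeq2 adjusted p = 0.00101). The 18-library test called atf3 without injured replicate 2, and its log2 change was 1.33 to 2.13 when single 24 hpi libraries were left out. For sox11b (ENSDARG00000095743, chromosome 20, 30032628 to 30035326, minus strand), a SoxC factor of neuronal differentiation and axon growth, values were 74.6, 84.3 and 113 CPM in the controls and 208, 239.6 and 519.5 CPM after injury. Injured replicate 3 was the highest, and the groups did not overlap (log2 change 1.83 ± 0.35, adjusted p = 0.105, DESeq2 adjusted p = 1.33e-04). Its paralog sox11a had 106, 155 and 149 CPM against 213, 195 and 380.0 CPM (log2 change 0.94 ± 0.23, adjusted p = 0.222). Of these injured values 2 lay within the 183 to 297 CPM of the 6 and 12 hpi controls and injured replicate 3 above it, and the log2 change was 0.58 without injured 24 hpi replicate 3. All 24 hpi controls of sox11a lay below that range. Reads of the paralogs may be shared, since how reads were assigned is not stated in the sources used here.

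The AP-1 factor jun was abundant in both groups, with 889.7, 927 and 924 CPM in the controls and 1231, 1090.3 and 1806 CPM after injury. Its injured values exceeded all 9 controls by a modest amount (log2 change 0.59 ± 0.22, adjusted p = 0.470), and the log2 change was 0.35 without injured 24 hpi replicate 3. A cAMP-responsive factor, cremb, had 2.47, 14 and 8.28 CPM in the controls and 56.5, 26.5 and 183 CPM after injury. Its spread within the injured group was wide, and its log2 change of 3.42 ± 0.80 (adjusted p = 0.197) was 2.33 without injured replicate 3. The AP-1 member fosl1b was low, at 0.454, 0.986 and 1.24 CPM against 3.65, 2.19 and 8.56 CPM (log2 change 2.41 ± 0.76, adjusted p = 0.345, DESeq2 adjusted p = 0.0494, adjusted p = 0.221 on the 6 libraries). Over the AP-1 and immediate early list, 5 of 33 tested genes were higher and 2 lower at an unadjusted p under 0.05, and the median log2 change was 0.30, against 0.02 over all genes. That list median ran from 0 to 0.32 when single 24 hpi libraries were left out. The activity-regulated factor npas4a was on the lower side, with 25.1, 3.78 and 16.2 CPM against 3.25, 6.97 and 4.92 CPM and overlapping groups (log2 change -1.57 ± 0.67, adjusted p = 0.533), and the log2 change was -0.98 without control 24 hpi replicate 1. Of the 19 SoxC and Krueppel-like factors, 2 were higher (sox11a and sox11b) and 1 lower. The list's median was -0.25, and -0.45 to 0.04 when single 24 hpi libraries were left out. The lower one was klf7a, with 25.5, 29.7 and 16 CPM against 11.8, 6.06 and 9.63 CPM (log2 change -1.37 ± 0.52, adjusted p = 0.487).

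The JAK/STAT pathway carries cytokine signals from receptors through Janus kinases to STAT transcription factors, and SOCS proteins inhibit it. Of 50 tested genes, 5 were higher at an unadjusted p under 0.05 (10.0%, against 3.39% over all genes) and 0 lower, and the median log2 change was 0.22. In 9 genes the injured libraries lay above all 24 hpi controls and in 2 below, against 7.85% and 8.40% over all genes. Among receptors, lepr, the leptin receptor, had 4.35, 6.28 and 5.26 CPM in the controls and 17, 16.7 and 35 CPM after injury (log2 change 2.11 ± 0.64, adjusted p = 0.298). All injured values exceeded all 9 controls. The shared cytokine receptor subunit il6st had 10.8, 8.5 and 10.8 CPM against 11.9, 12.4 and 28.9 CPM (log2 change 0.82 ± 0.40, adjusted p = 0.596). Injured replicate 3 stood well above the other libraries, and the log2 change was 0.28 without injured 24 hpi replicate 3.

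Among kinases, jak1 (ENSDARG00000020625, chromosome 6, 31368071 to 31429161, plus strand) had 32.4, 31.8 and 31.9 CPM in the controls and 64.1, 55.5 and 69.9 CPM after injury. The injured values were close to each other and all above the 24 hpi controls (log2 change 0.98 ± 0.18, adjusted p = 0.105), and jak1 was called on the 6 libraries alone (adjusted p = 0.0458) and by DESeq2 (adjusted p = 7.35e-04). The 6 controls of 6 and 12 hpi held 65.6 to 87.6 CPM, a range that the injured 24 hpi values reached or stayed under, so the 24 hpi controls were the libraries that stood low. The factor stat3 (ENSDARG00000022712, chromosome 3, 17030665 to 17107445, plus strand) had 11.8, 17.2 and 10.5 CPM in the controls and 22.4, 26.4 and 43.9 CPM after injury, with injured values above all 9 controls (log2 change 1.23 ± 0.55, adjusted p = 0.556). Feedback inhibitors were higher as well. For socs3b (ENSDARG00000026611, chromosome 12, 34258139 to 34277465, plus strand) the values were 5.71, 11.5 and 7.99 CPM in the controls and 15.2, 15.3 and 42 CPM after injury, above all 9 controls (log2 change 1.52 ± 0.48, adjusted p = 0.349), and the log2 change was 0.87 without injured 24 hpi replicate 3. Its paralog socs3a had 4.48, 2.26 and 0.745 CPM against 4.61, 9.46 and 12.1 CPM (log2 change 1.82 ± 0.68, adjusted p = 0.475). The injured replicate 1 value of socs3a lay within the 0.525 to 5.24 CPM of the 6 and 12 hpi controls. Of innate immune genes, 2 of 50 were higher and 1 lower (4.0% and 2.0%, against 3.39% and 5.09% over all genes). The interferon factors irf9 (16.8, 30.3 and 23.1 CPM against 46.1, 42.7 and 98.8 CPM, log2 change 1.42 ± 0.46, adjusted p = 0.369) and irf1b (5.58, 3.24 and 5.26 CPM against 14.7, 8.04 and 15.3 CPM, log2 change 1.44 ± 0.67, adjusted p = 0.576) were the higher ones, and the log2 change of irf9 was 0.92 without injured 24 hpi replicate 3. The lower one was irf7 (8.3, 2.51 and 5.54 CPM against 0.922, 0.731 and 1.93 CPM, log2 change -2.18 ± 0.72, adjusted p = 0.380), and the list's median was 0.01, or 0.04 with genes that had no count in a group set at the bound their counts allow.

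The gene with the smallest p on the higher side was vmp1 (ENSDARG00000012450, chromosome 15, 17343319 to 17373352, plus strand), which encodes a membrane protein of the endoplasmic reticulum needed to form autophagosomes. It had 26.9, 34.4 and 69.6 CPM in the controls and 172, 103 and 263 CPM after injury, a mean of 43.6 ± 22.8 CPM in controls and 179 ± 80.6 CPM after injury (SD, n = 3 each), and the injured libraries lay above all 9 controls. The log2 change was 2.04 ± 0.33 (adjusted p = 0.0986, and 3.00e-06 with DESeq2). It was 1.65 to 2.55 when single 24 hpi libraries were left out. The test called vmp1 without control replicate 3, without injured replicate 2, and when genes with low counts were kept. Controls of 6 and 12 hpi had 29 to 41.9 CPM, close to the lower 24 hpi controls. The redox protein thioredoxin, txn, had 2.79, 4.85 and 6.25 CPM in the controls and 25.4, 9.16 and 48.3 CPM after injury (log2 change 2.57 ± 0.52, adjusted p = 0.133). The groups did not overlap, but the lowest injured value lay within the 6 and 12 hpi controls. The test called txn without injured replicate 2, and its log2 change was 1.89 without injured 24 hpi replicate 3. The major vault protein gene mvp had 5.77, 5.67 and 4.63 CPM against 35, 11.4 and 61 CPM (log2 change 2.74 ± 0.61, adjusted p = 0.169). Its injured replicate 2 lay within the 3.47 to 16.1 CPM of the 6 and 12 hpi controls. The Polycomb reader cbx7a had 63.3, 73 and 65.4 CPM in the controls and 364, 103 and 681 CPM after injury, with little spread among 24 hpi controls and much among injured libraries (log2 change 2.51 ± 0.51, adjusted p = 0.133), and the log2 change was 1.80 without injured 24 hpi replicate 3. Its 6 and 12 hpi controls ran from 41.6 to 120 CPM, a range that holds injured replicate 2. The 18-library test called cbx7a too without injured replicate 2.

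Others of the 15 higher genes follow. The actin regulator rhoca, a small GTPase gene, had 10.1, 10.1 and 13.5 CPM against 26.4, 24.7 and 57.9 CPM (log2 change 1.69 ± 0.35, adjusted p = 0.146). Iron metabolism was represented by ireb2, an RNA-binding regulator of iron genes, with 8.05, 11.25 and 7.94 CPM against 15.7, 26.7 and 14.4 CPM (log2 change 1.06 ± 0.23, adjusted p = 0.169). The log2 change of ireb2 was 0.73 without injured 24 hpi replicate 2. Its 6 and 12 hpi controls ran from 11.27 to 15.95 CPM, a range that holds injured replicates 1 and 3. All its 24 hpi controls lay below that range, 1 of them only just. The diphthamide synthesis gene dph1 had 11.5, 11.5 and 11.9 CPM against 21.5, 21.1 and 18.4 CPM (log2 change 0.81 ± 0.20, adjusted p = 0.222). The 6 and 12 hpi controls of dph1 ran from 12.4 to 17.2 CPM, above all its 24 hpi controls and below all injured values. The lipase family gene lipib had 9.21, 29.9 and 24.7 CPM against 45.4, 49.2 and 120.1 CPM (log2 change 1.74 ± 0.41, adjusted p = 0.213), and the log2 change was 1.15 without injured 24 hpi replicate 3. The gene zgc:110339 had 5.97, 5.38 and 6.62 CPM against 16, 16.8 and 38.6 CPM (log2 change 1.99 ± 0.45, adjusted p = 0.181). The homeobox gene homeza had 13, 13.6 and 15.7 CPM against 32.5, 20.5 and 36.7 CPM (log2 change 1.09 ± 0.25, adjusted p = 0.181), and 1 of these injured values lay within the 17.5 to 32.2 CPM of the 6 and 12 hpi controls. All 24 hpi controls of homeza lay below that range. Injured replicate 3, the only injured 24 hpi library of set 1, held the highest injured value in 13 of the 15 genes. The 15 log2 changes ran from 0.81 to 3.42 with a median of 1.75, and without that library from 0.58 to 2.33 with a median of 1.31. Of the 15 genes, 8 had all injured values above all 9 controls, all 15 were called by DESeq2, and jak1 was called on the 6 libraries alone. These counts reuse the libraries from which the 15 genes were picked.

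**Figure D3:**
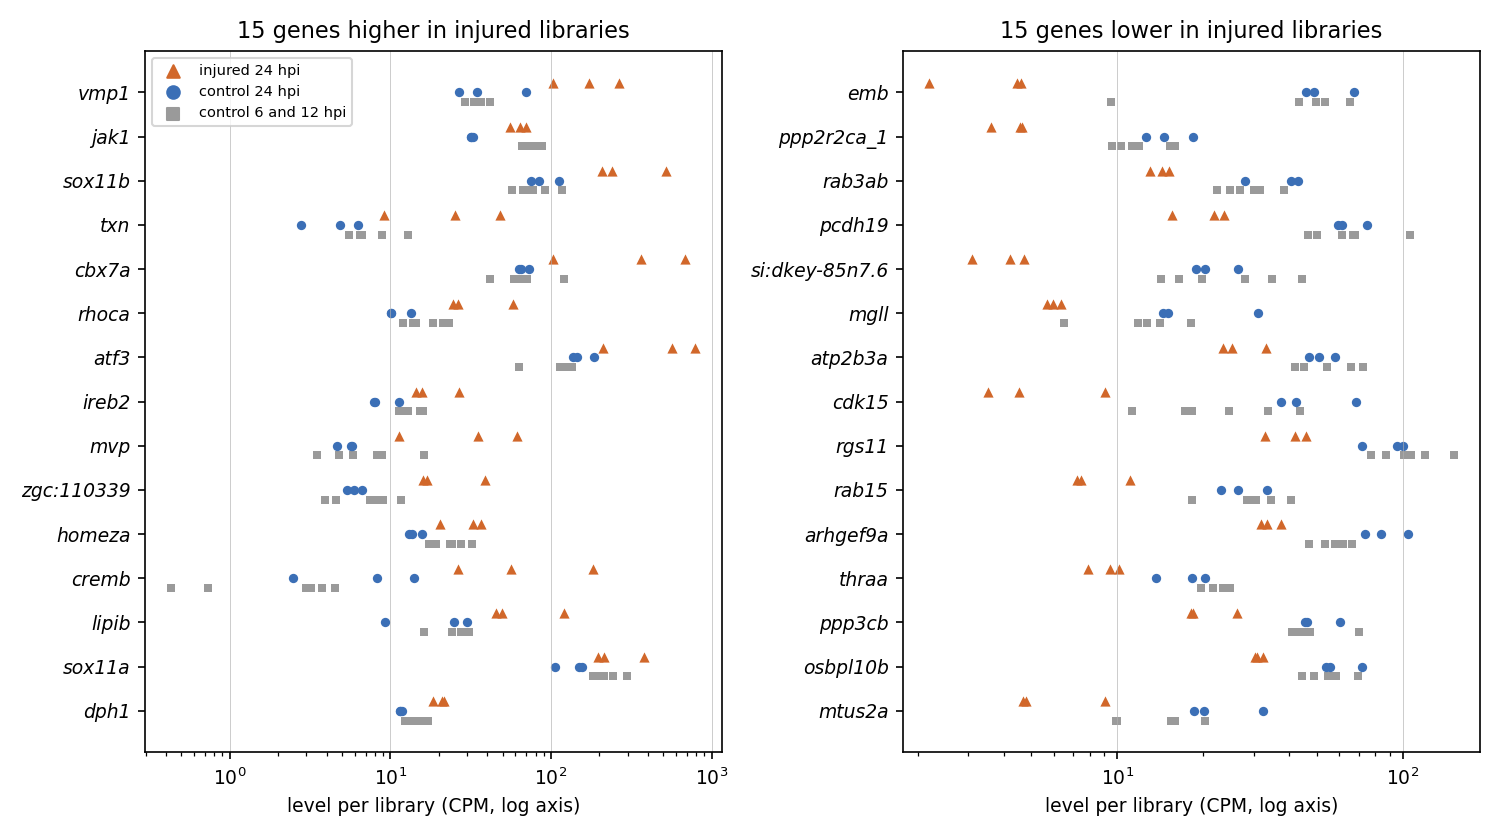
Level per library (CPM, log axis) of the 15 higher and 15 lower genes; triangles are injured and circles control libraries of 24 hpi, grey squares the 6 control libraries of 6 and 12 hpi. Every lower gene has its 3 injured libraries below all 9 controls, whereas 8 of the higher genes lie above all 9; vmp1 spans 103 to 263 CPM in injured and 26.9 to 69.6 CPM in control libraries.

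Stress genes that are induced by misfolded proteins had more higher than lower members, with small differences. In the unfolded protein and ATF4 list, 4 of 44 genes were higher at an unadjusted p under 0.05, 0 lower, and 33 had a positive fold change (median 0.14). The pseudokinase trib3 had 25.3, 25.3 and 23.2 CPM against 40.6, 29 and 82.9 CPM (log2 change 1.05 ± 0.35, adjusted p = 0.400), and the log2 change was 0.50 without injured 24 hpi replicate 3. Its injured replicate 2 lay within the 14.5 to 35.2 CPM of the 6 and 12 hpi controls. Groups of the pro-apoptotic factor ddit3 overlapped, with 10.1, 12.6 and 8.98 CPM against 17, 9.89 and 40.2 CPM (log2 change 1.08 ± 0.41, adjusted p = 0.489), and the log2 change was 0.35 without injured 24 hpi replicate 3. Those of atf4b, a central factor of the pathway, also overlapped, with 489.5, 474 and 544 CPM against 614, 530.3 and 668 CPM (log2 change 0.27 ± 0.13, adjusted p = 0.589). Injured replicate 3 was the highest in each. Among heat shock proteins 4 of 32 were higher and 0 lower (median 0.11). The small heat shock protein hspb8, a partner of chaperone-assisted autophagy, was almost absent from 24 hpi controls, with 0.13, 0.452 and 0 CPM in the controls and 7.03, 2.71 and 23.7 CPM after injury (log2 change 5.78 ± 1.57, adjusted p = 0.266, DESeq2 adjusted p = 0.00520). Its 6 and 12 hpi controls ran from 0 to 3.00 CPM, a range that holds injured replicate 2. The co-chaperone dnajb4 had 9.8, 8.75 and 6.95 CPM against 21.4, 9.59 and 45.6 CPM (log2 change 1.59 ± 0.46, adjusted p = 0.280). Its groups overlapped, and the log2 change was 0.87 without injured 24 hpi replicate 3. The mitochondrial chaperone hspa9 had 402, 406 and 419 CPM against 510.5, 462 and 531 CPM (log2 change 0.29 ± 0.13, adjusted p = 0.543), above all 9 controls. In the autophagy and lysosome list 4 of 48 were higher and 2 lower (8.33% and 4.17%, against 3.39% and 5.09% over all genes, median 0.13). The lysosomal protease ctsba had 28.5, 52 and 41.7 CPM against 56.3, 56.1 and 74.9 CPM (log2 change 0.61 ± 0.25, adjusted p = 0.516). Of atg2b, on the lower side, there were 5.45, 9.53 and 7.86 CPM against 4.08, 2.36 and 2.44 CPM (log2 change -1.36 ± 0.46, adjusted p = 0.400). Of apoptosis and p53 genes, 0 of 33 were higher and 1 lower, with a median of 0.07. The DLK, JNK and axon degeneration list had 0 higher and 1 lower of 31. The lower gene was ptenb, a phosphatase that restrains growth signalling, with 172, 184 and 216 CPM against 145, 147 and 148 CPM (log2 change -0.38 ± 0.11, adjusted p = 0.280, DESeq2 adjusted p = 0.0174, adjusted p = 0.244 on the 6 libraries).

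Genes of axon growth were divided. Of 48 tested, 7 were higher and 5 lower at an unadjusted p under 0.05, and the median was -0.07. The growth cone protein gap43 (ENSDARG00000099744, chromosome 15, 47161917 to 47176151, plus strand) had 84.3, 169 and 99.5 CPM in the controls and 235, 201 and 569 CPM after injury, above all 9 controls, with injured replicate 3 far above the others (log2 change 1.51 ± 0.53, adjusted p = 0.433), and the log2 change was 0.89 without injured 24 hpi replicate 3. The stress-inducible gadd45ga had 16.9, 17.8 and 19.6 CPM against 39.7, 24.4 and 67.4 CPM (log2 change 1.27 ± 0.40, adjusted p = 0.337), and the log2 change was 0.82 without injured 24 hpi replicate 3. The transcriptional repressor tgif1 had 30.6, 34.9 and 22.9 CPM against 59, 38.8 and 77.1 CPM (log2 change 0.98 ± 0.32, adjusted p = 0.363). Its injured replicate 2 lay within the 19.8 to 44.5 CPM of the 6 and 12 hpi controls. On the lower side, marcksl1b, an actin and membrane-binding protein of growing neurites, had 1140.1, 988 and 1049 CPM in the controls and 444, 461 and 623 CPM after injury. All injured values lay below all 9 controls (log2 change -1.06 ± 0.28, adjusted p = 0.252), and it was called on the 6 libraries (adjusted p = 0.0350) and by DESeq2 (adjusted p = 0.0225). The microtubule regulator stmn1a had 52, 11.9 and 13.2 CPM against 7.64, 10.7 and 6.85 CPM, where control replicate 1 set the difference (log2 change -1.61 ± 0.48, adjusted p = 0.287), and the log2 change was -0.58 without control 24 hpi replicate 1.

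Among genes that define ganglion cells, far more had lower than higher values. Of the 48 tested markers, 20 were lower and 2 higher at an unadjusted p under 0.05, and the median log2 change was -0.84. In 25 markers all injured libraries lay below all 24 hpi controls, as in 8.40% of all genes. Of the 48 markers, 5 lay below all 9 controls of the 3 time points, against 1.85% of all genes. The marker list was also the check of the label, so this count restates the lower share above. The POU factor pou4f3 (ENSDARG00000006206, chromosome 9, 54290896 to 54292162, plus strand) had 29.6, 40.3 and 44.4 CPM in the controls and 11.5, 3.91 and 5.87 CPM after injury (log2 change -2.42 ± 0.64, adjusted p = 0.242), below all 9 controls and called on the 6 libraries (adjusted p = 0.0474) and by DESeq2 (adjusted p = 0.00870). Its relatives pou4f2 (163, 159.5 and 120.4 CPM against 33, 41 and 75.6 CPM, log2 change -1.56 ± 0.73, adjusted p = 0.576) and pou4f1 (20.9, 21.2 and 16.6 CPM against 4.26, 3.22 and 10.5 CPM, log2 change -1.71 ± 0.73, adjusted p = 0.539) had lower injured values without overlap, but injured values of both lay within the 31.1 to 187 CPM and 2.75 to 24.7 CPM of the 6 and 12 hpi controls. The Iroquois factor irx4a had 53.4, 43.9 and 47.8 CPM in the controls and 12.9, 11.7 and 13.5 CPM after injury (log2 change -1.93 ± 0.75, adjusted p = 0.495, adjusted p = 0.0106 on the 6 libraries and 0.310 with DESeq2). Its 6 and 12 hpi controls ran from 4.54 to 61.3 CPM, a range that holds all injured values.

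The RNA-binding proteins rbpms2a (410.4, 367 and 296 CPM against 54.6, 37.8 and 130.0 CPM, log2 change -2.27 ± 0.73, adjusted p = 0.370) and rbpms2b (330.4, 338 and 277 CPM against 62.3, 86.5 and 128 CPM, log2 change -1.77 ± 0.61, adjusted p = 0.414) were among the more abundant markers with lower values, and rbpms2b was called on the 6 libraries (adjusted p = 0.0350) and not by DESeq2 (adjusted p = 0.219). The 6 and 12 hpi controls of rbpms2a ran from 40.4 to 313 CPM and held injured replicates 1 and 3. Those of rbpms2b ran from 89.8 to 445 CPM and held injured replicate 3. The homeobox factor barhl2 had 87.9, 109 and 63.7 CPM against 11.3, 20.4 and 31.9 CPM (log2 change -2.03 ± 0.48, adjusted p = 0.209). The vesicular glutamate transporter slc17a6b, which loads the cells' own transmitter, had 66.7, 60.2 and 49 CPM against 15.3, 6.71 and 23.2 CPM (log2 change -1.96 ± 0.48, adjusted p = 0.222). For both barhl2 and slc17a6b the injured libraries did not all lie below all 9 controls of the series. The T-box factor tbr1b, which marks a subset of ganglion cells, had 24.5, 14.4 and 16.8 CPM against 1.8, 0 and 3.94 CPM (log2 change -3.27 ± 0.93, adjusted p = 0.274). Markers did not move together in size or direction. Besides gap43, the proneural factor atoh7, which specifies ganglion cells in development, had higher injured values, 2.66, 16.2 and 8.98 CPM against 26, 67.9 and 24.3 CPM (log2 change 2.07 ± 0.60, adjusted p = 0.280). Its 6 and 12 hpi controls ran from 16.4 to 108 CPM, a range that holds all injured values, so the 24 hpi controls were the libraries that stood low. The tubulin tubb5 overlapped, at 227, 431 and 254 CPM against 232, 479 and 524 CPM (log2 change 0.44 ± 0.60, adjusted p = 0.923), and the log2 change was 0.77 without control 24 hpi replicate 2. Of the 38 better measured markers, 29 had their highest injured value in injured replicate 3, and their median log2 change was -0.88 with that library and -1.08 without it.

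**Figure D4:**
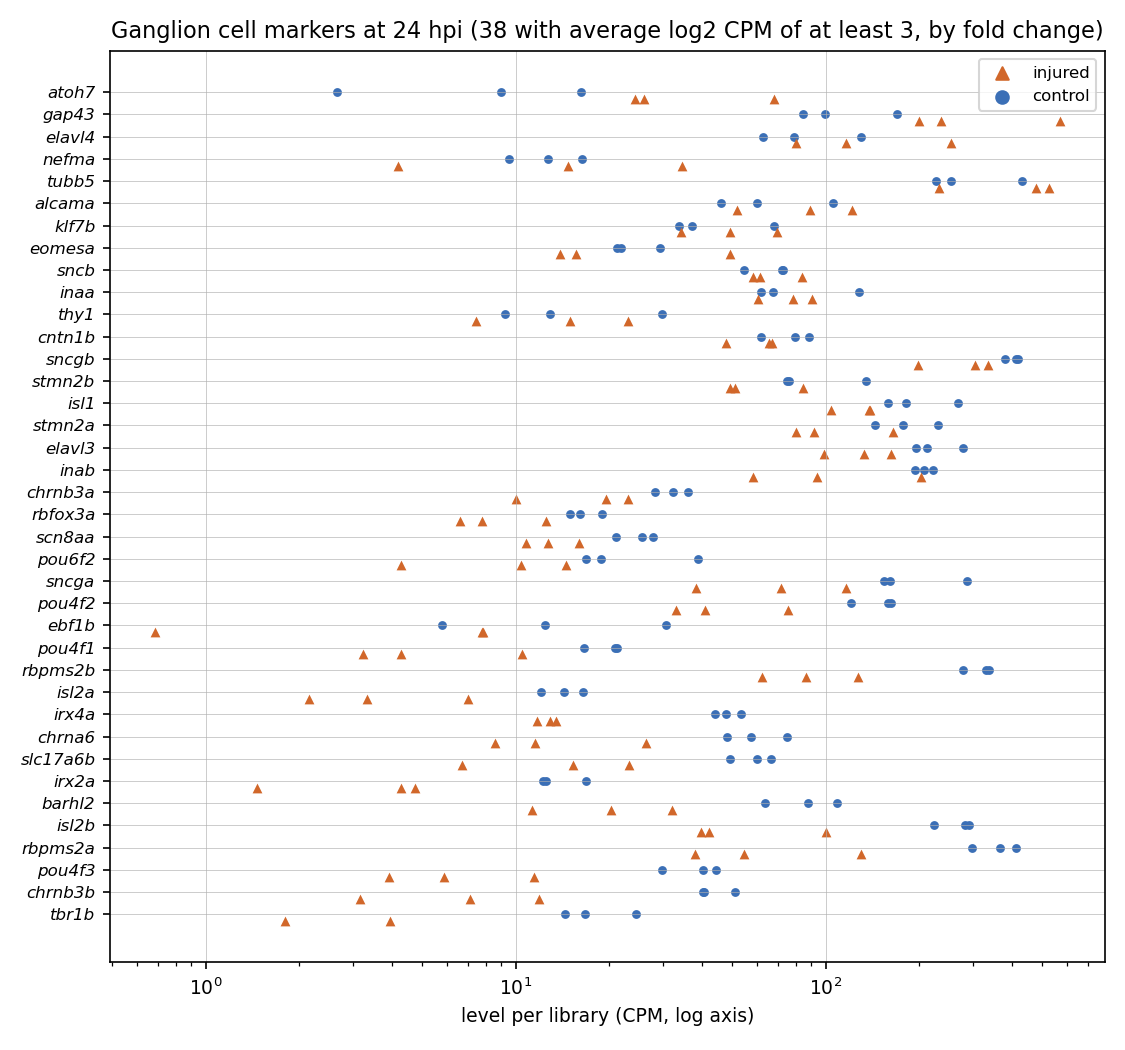
Level per library (CPM, log axis) of the 38 ganglion cell markers with an average log2 CPM of at least 3, ordered by fold change from highest at the top; triangles are injured and circles control libraries of 24 hpi, and a library with no count is not drawn. Markers at the bottom, such as pou4f3 and rbpms2a, are separated between groups, those in the middle overlap, and gap43 and atoh7 at the top are higher in injured libraries.

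The gene with the smallest p of all was emb (ENSDARG00000059485, chromosome 5, 66353589 to 66362023, plus strand), which encodes embigin, an immunoglobulin-family partner of monocarboxylate transporters. It had 67.7, 45.8 and 49 CPM in the controls and 2.2, 4.6 and 4.45 CPM after injury, a mean of 54.2 ± 11.8 CPM in controls and 3.75 ± 1.35 CPM after injury (SD, n = 3 each). The injured libraries lay below all 9 controls, of which the lowest, at 12 hpi, had 9.53 CPM. The log2 change was -3.85 ± 0.61 (adjusted p = 0.0986), and -4.02 to -3.58 when single 24 hpi libraries were left out. Its adjusted p was 0.0106 on the 6 libraries alone and 5.32e-09 with DESeq2. The protocadherin pcdh19 (ENSDARG00000034344, chromosome 14, 40300961 to 40390757, minus strand), a homophilic adhesion molecule of neurons, had 59.4, 75.1 and 61.3 CPM in the controls and 21.8, 23.7 and 15.6 CPM after injury (log2 change -1.68 ± 0.31, adjusted p = 0.105, adjusted p = 0.0238 on the 6 libraries). The kinase cdk15 had 37.5, 42.3 and 68.4 CPM in the controls and 4.52, 3.53 and 9.08 CPM after injury (log2 change -3.11 ± 0.63, adjusted p = 0.133, adjusted p = 0.0332 on the 6 libraries). The uncharacterised si:dkey-85n7.6 had 26.4, 18.8 and 20.4 CPM against 4.22, 3.1 and 4.71 CPM (log2 change -2.45 ± 0.45, adjusted p = 0.105, adjusted p = 0.0238 on the 6 libraries).

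The remaining genes of the 15 lower ones are listed next. The plasma membrane calcium pump atp2b3a had 57.8, 50.7 and 47 CPM against 25.3, 33.2 and 23.5 CPM (log2 change -0.92 ± 0.18, adjusted p = 0.105). A catalytic subunit of calcineurin, ppp3cb, had 60.5, 46.1 and 45.5 CPM against 26.2, 18.1 and 18.4 CPM (log2 change -1.28 ± 0.27, adjusted p = 0.160). The G protein regulator rgs11 had 99.9, 72 and 95.6 CPM against 41.9, 45.6 and 32.8 CPM (log2 change -1.15 ± 0.23, adjusted p = 0.133, adjusted p = 0.0474 on the 6 libraries). In each of these 3 genes the groups were well apart. A regulatory subunit of protein phosphatase 2A, ppp2r2ca_1 in the deposited table, had 14.5, 18.4 and 12.6 CPM against 4.57, 3.61 and 4.62 CPM (log2 change -1.83 ± 0.33, adjusted p = 0.105, adjusted p = 0.0474 on the 6 libraries). The endocannabinoid-degrading lipase mgll had 31.1, 14.5 and 15 CPM against 5.67, 5.93 and 6.34 CPM (log2 change -1.75 ± 0.34, adjusted p = 0.105). Control replicate 1 was above the other controls, and the log2 change was -1.30 without control 24 hpi replicate 1. The Rab GTPase rab15 had 23.2, 33.4 and 26.6 CPM against 7.2, 7.48 and 11 CPM (log2 change -1.69 ± 0.35, adjusted p = 0.146). The thyroid hormone receptor thraa had 13.7, 18.2 and 20.2 CPM against 10.1, 7.91 and 9.42 CPM (log2 change -0.93 ± 0.20, adjusted p = 0.146). Of arhgef9a, whose mammalian counterpart collybistin places gephyrin at inhibitory synapses, there were 104, 73.8 and 83.8 CPM against 37.3, 33.4 and 31.9 CPM (log2 change -1.35 ± 0.28, adjusted p = 0.146, adjusted p = 0.0270 on the 6 libraries). The lipid-binding osbpl10b (55.7, 54 and 72 CPM against 32.4, 30.9 and 30.4 CPM, log2 change -0.96 ± 0.21, adjusted p = 0.161) and the microtubule-associated mtus2a (18.6, 20 and 32.4 CPM against 9.05, 4.77 and 4.67 CPM, log2 change -1.94 ± 0.42, adjusted p = 0.161) complete the 15, with rab3ab described among synaptic genes. All 15 had injured libraries below all 9 controls, all 15 were called by DESeq2 and 10 on the 6 libraries. The genes were picked by their p from the same libraries, so these counts are not independent support. Their log2 changes ran from -3.85 to -0.92.

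Genes of synaptic transmission had many lower members. Of 74 tested genes of synaptic vesicles and the SNARE fusion machinery, 24 were lower and 0 higher at an unadjusted p under 0.05, with a median of -0.46. The vesicle GTPase rab3ab (ENSDARG00000043835, chromosome 11, 6819050 to 6850593, plus strand) had 42.9, 40.5 and 28.1 CPM in the controls and 14.3, 13 and 15.2 CPM after injury (log2 change -1.39 ± 0.25, adjusted p = 0.105), below all 9 controls, and was called on the 6 libraries (adjusted p = 0.0474). The calcium sensor syt9b had 26.3, 29.7 and 24.2 CPM in the controls and 5.53, 3.83 and 5.52 CPM after injury (log2 change -2.43 ± 0.68, adjusted p = 0.266, adjusted p = 0.0238 on the 6 libraries). Its 6 and 12 hpi controls ran from 1.63 to 15.7 CPM, a range that holds all injured values, so the 24 hpi controls were the libraries that stood high. The vesicle glycoprotein sv2a had 50.1, 44.6 and 28.3 CPM against 7.77, 4.69 and 18.7 CPM (log2 change -1.98 ± 0.53, adjusted p = 0.266). The ATPase nsfa, which recycles SNARE complexes, had 462, 422 and 498 CPM against 401, 347 and 299 CPM (log2 change -0.40 ± 0.12, adjusted p = 0.285), the smallest difference of the 4.

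Ion channels and transmitter receptors followed the same direction in count. Of 75 potassium channel genes 17 were lower and 0 higher at an unadjusted p under 0.05, with a median of -0.87. The fast delayed rectifier kcnc1b had 8.76, 5.75 and 9.14 CPM against 2.33, 2.24 and 1.84 CPM (log2 change -1.88 ± 0.42, adjusted p = 0.171). The gene kcnd1, of A-type currents, had 52, 44.4 and 64.3 CPM against 8.48, 4.69 and 17.4 CPM (log2 change -2.39 ± 0.64, adjusted p = 0.253). The Shaker channel kcna1a was nearly gone from injured libraries, at 6.23, 3.7 and 5.3 CPM against 0.351, 0 and 1.07 CPM (log2 change -3.40 ± 0.83, adjusted p = 0.222). Of 10 sodium channel genes 3 were lower and 0 higher, with a median of -0.53. They include scn8aa, the channel of the axon initial segment, at 25.5, 27.8 and 21.1 CPM against 12.7, 10.8 and 16 CPM (log2 change -0.91 ± 0.35, adjusted p = 0.486). Calcium channels had 6 lower and 0 higher of 40, with a median of -0.50. The presynaptic channel cacna1aa had 17.6, 16.3 and 14.2 CPM against 4.7, 6.28 and 7.32 CPM (log2 change -1.39 ± 0.62, adjusted p = 0.556).

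Glutamate receptors had 8 lower and 1 higher of 36, with a median of -0.74. The AMPA receptor subunit gria2a had 34.5, 18.8 and 34 CPM against 5.89, 6.66 and 12 CPM (log2 change -1.83 ± 0.54, adjusted p = 0.285). Receptors for GABA and glycine had 10 lower and 0 higher of 27, with a median of -0.53. The GABA receptor subunit gabrb2a had 37.7, 34.2 and 37 CPM against 2.33, 2.67 and 13.4 CPM (log2 change -2.57 ± 0.65, adjusted p = 0.226). Injured replicate 3 lay between the other injured libraries and the controls, and the log2 change was -3.86 without injured 24 hpi replicate 3. Of 14 nicotinic receptor genes, 3 were lower and 0 higher, with a median of -0.91. The subunit chrnb3b had 40.6, 40.2 and 51.2 CPM against 7.12, 3.14 and 11.9 CPM (log2 change -2.58 ± 0.88, adjusted p = 0.406), and it and chrna6 also stand in the ganglion cell marker list. These neuronal lists moved beside the ganglion cell score, and whether they differed beyond it was not tested.

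**Figure D5:**
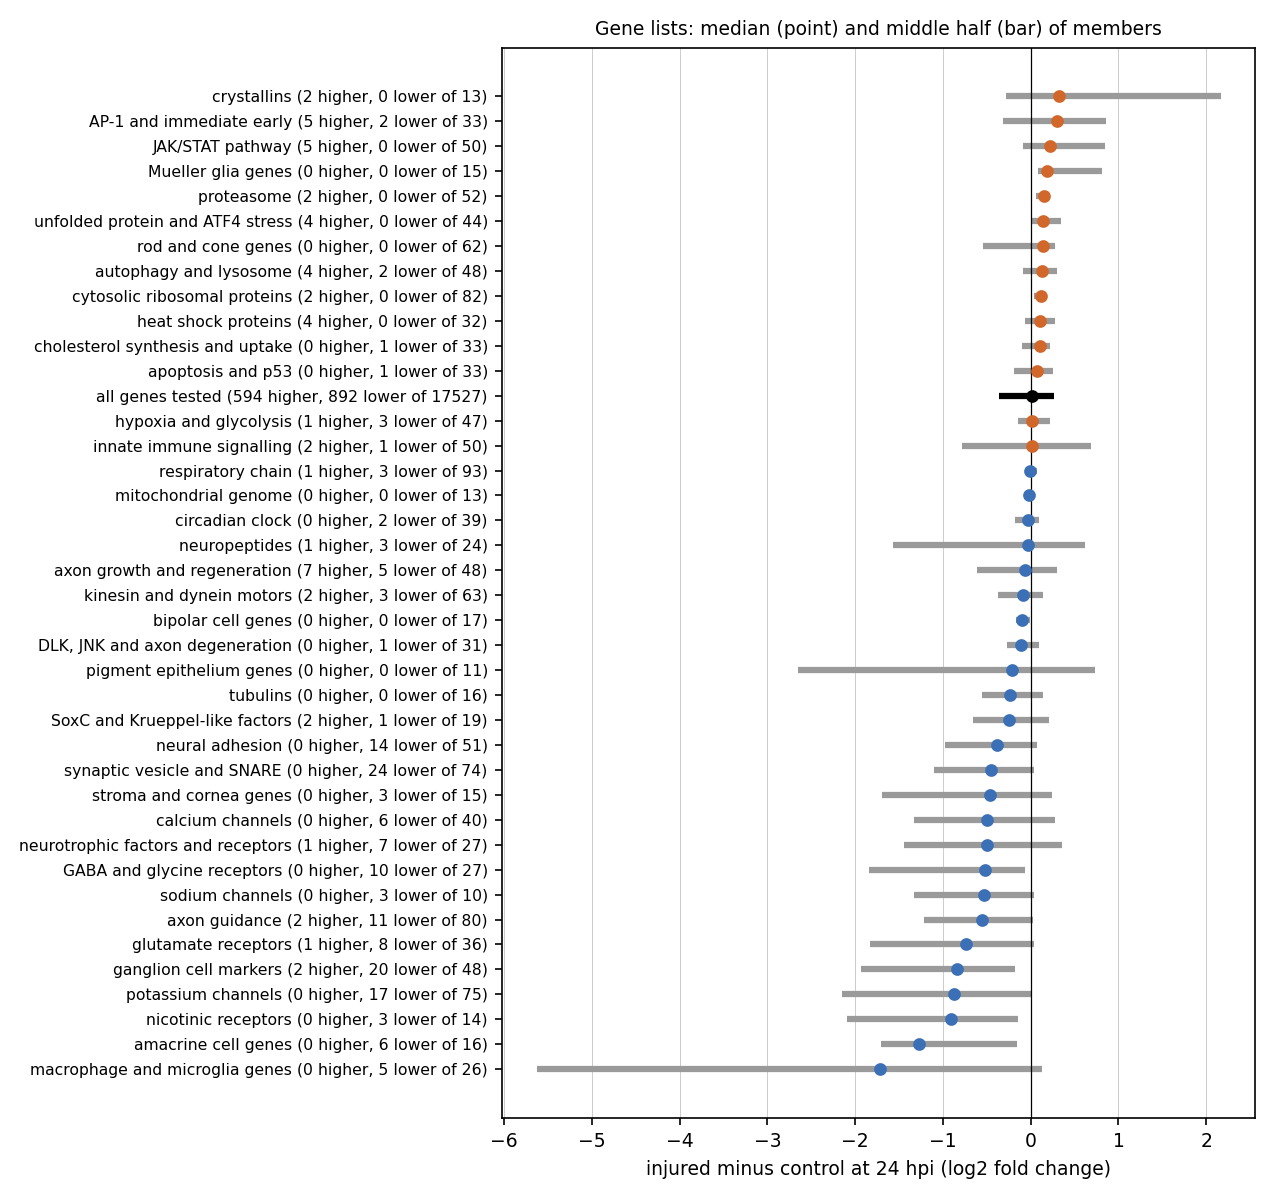
Median (point) and middle 50% (bar) of injured minus control log2 changes at 24 hpi for each gene list with at least 10 tested genes, with the numbers higher and lower at an unadjusted p under 0.05 in parentheses; black is all genes tested. Ganglion cell markers, channels, receptors and synaptic vesicle genes have medians below 0, while ribosomal, proteasome and stress lists lie slightly above 0.

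Axon guidance and adhesion genes, which serve to find and hold synaptic targets, had more lower than higher members. In axon guidance 11 of 80 were lower and 2 higher, with a median of -0.56. The semaphorin receptor plxna1a had 7.79, 8.79 and 11.2 CPM against 3.43, 4.47 and 2.44 CPM (log2 change -1.43 ± 0.32, adjusted p = 0.169, DESeq2 adjusted p = 0.00284). The ephrin efna2a had 27.6, 18.6 and 20.6 CPM against 6.32, 3.83 and 9.33 CPM (log2 change -1.78 ± 0.56, adjusted p = 0.348), and the receptor epha7 had 20.3, 9.12 and 13.3 CPM against 6.19, 4.0 and 5.09 CPM (log2 change -1.48 ± 0.44, adjusted p = 0.286). In neural adhesion 14 of 51 were lower and 0 higher, with a median of -0.39. The teneurins, which match synaptic partners, were represented by tenm4 with 23.1, 21.7 and 13.7 CPM against 6.85, 4.34 and 7.02 CPM (log2 change -1.68 ± 0.38, adjusted p = 0.169). Another, tenm3, had 46.7, 52.4 and 29.3 CPM against 24.7, 16.9 and 25.4 CPM (log2 change -0.94 ± 0.27, adjusted p = 0.274). The presynaptic organiser nrxn1a had 114, 92.8 and 87.4 CPM against 42, 30.2 and 49.9 CPM (log2 change -1.27 ± 0.35, adjusted p = 0.266).

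Of 27 neurotrophic factors and receptors, 7 were lower and 1 higher (median -0.50). The growth factor gene bdnf had 45.4, 35.5 and 53.6 CPM in the controls and 17, 10.6 and 31.1 CPM after injury (log2 change -1.20 ± 0.36, adjusted p = 0.311). The insulin-like growth factor igf2b had 61.5, 49.8 and 99.2 CPM in the controls and 4.48, 4.69 and 23.4 CPM after injury (log2 change -2.69 ± 0.68, adjusted p = 0.226). The neurotrophin receptor ntrk3a had 44.8, 33.2 and 25.6 CPM against 6.9, 15.6 and 11.8 CPM (log2 change -1.59 ± 0.47, adjusted p = 0.285). In all 3 genes the groups did not overlap, while injured values of each reached into the range of the 6 and 12 hpi controls. Neuropeptide genes were divided, 1 higher and 3 lower of 24. The granin chga, of dense-core vesicles, had 9.54, 9.32 and 11 CPM against 27.2, 12.5 and 56.9 CPM (log2 change 1.69 ± 0.58, adjusted p = 0.414), and the log2 change was 0.99 without injured 24 hpi replicate 3. The peptide npy had 7.33, 8.95 and 4.55 CPM against 0.439, 0.817 and 2.27 CPM (log2 change -2.56 ± 1.17, adjusted p = 0.568).

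Tubulins had 0 higher and 0 lower of 16 at an unadjusted p under 0.05 in edgeR, with a median of -0.24 and 6 genes lower without overlap, against 8.40% over all genes. One of them, tuba2, was called on the 6 libraries (adjusted p = 0.0350) and not by DESeq2 (adjusted p = 0.466), with 85.7, 98.6 and 85.5 CPM against 48, 46.8 and 50 CPM. Kinesin and dynein motors had 2 higher and 3 lower of 63 (3.17% and 4.76%, near the 3.39% and 5.09% over all genes, median -0.09). The kinesin light chain klc4 had 17.8, 20 and 21.4 CPM against 29.8, 26.5 and 25.9 CPM (log2 change 0.47 ± 0.20, adjusted p = 0.528), above all 9 controls.

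Markers of neighbouring neurons were not all level. In the amacrine cell list 6 of 16 were lower and 0 higher (median -1.27). The calcium-binding calb2a had 182, 116 and 198 CPM against 8.13, 7.74 and 40.4 CPM (log2 change -3.14 ± 1.02, adjusted p = 0.374) and calb2b 336, 242 and 389.6 CPM against 72, 43 and 119 CPM (log2 change -2.05 ± 0.73, adjusted p = 0.442). The eye factor pax6a had 119.5, 145 and 109 CPM against 49, 53.3 and 60 CPM (log2 change -1.20 ± 0.45, adjusted p = 0.474, adjusted p = 0.0332 on the 6 libraries and 0.169 with DESeq2). Its paralog pax6b had 161, 184 and 119 CPM against 46.6, 71.8 and 59.5 CPM (log2 change -1.38 ± 0.46, adjusted p = 0.387). Ganglion cells are known to express calb2 and pax6 as well, so these members do not tell the cell types apart. Bipolar cell genes had 0 higher and 0 lower of 17 (median -0.10), and Mueller glia genes 0 and 0 of 15 (median 0.19). Macrophage and microglia genes had 5 lower and 0 higher of 26, at low levels, with a median of -1.72. That median ran from -2.31 to 0.29 when single 24 hpi libraries were left out. DESeq2 called 2 of these genes lower, against 1.00% over all genes. One of the lower genes, cd74a, rested on control replicate 1, with 73.6, 0.164 and 0 CPM against 0, 0 and 1.28 CPM.

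General cell machinery differed by little. Of 82 cytosolic ribosomal protein genes 69 had a positive fold change, against 51.4% of all genes. Their median was 0.12, and 2 were higher at an unadjusted p under 0.05. One was rps2, with 469.6, 498 and 471 CPM against 579, 554 and 667 CPM (log2 change 0.32 ± 0.13, adjusted p = 0.510). Proteasome genes had a positive fold change in 46 of 52 (median 0.15), with 2 higher. The regulatory subunit psmd1 had 96.1, 92.1 and 124 CPM against 133, 163 and 126 CPM (log2 change 0.43 ± 0.16, adjusted p = 0.444). Respiratory chain genes had 1 higher and 3 lower of 93, with a median of -0.01. Hypoxia and glycolysis genes had 1 higher and 3 lower of 47 (2.13% and 6.38%, near the 3.39% and 5.09% over all genes, median 0.01). The neuronal enolase eno2 had 464, 333 and 434 CPM against 228, 240.0 and 326 CPM (log2 change -0.63 ± 0.29, adjusted p = 0.572). Circadian clock genes had 0 higher and 2 lower of 39 (median -0.03).

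Whether the injury effect at 24 hpi differed from the mean of the effects at 6 and 12 hpi was tested in the same 18-library fit. With edgeR 0 of 17527 genes passed an adjusted p of 0.05, the smallest was 0.616, and 961 genes (5.48%) had an unadjusted p under 0.05, 410 of them with a higher and 551 with a lower effect at 24 hpi. DESeq2 called 20 genes, 6 with a higher and 14 with a lower effect. For vmp1 the effect was 1.90 ± 0.40 (adjusted p = 0.616) log2 units above that of the earlier times. It had 37.3 ± 4.37 CPM in controls and 39.2 ± 9.36 CPM after injury at 6 hpi, and 33.3 ± 3.82 CPM in controls and 38.2 ± 3.97 CPM after injury at 12 hpi. For emb the difference was -3.26 ± 0.69 (adjusted p = 0.616). The groups of atf3 were already apart at both earlier times. It had 104 ± 36.2 CPM in controls and 245 ± 91.4 CPM after injury at 6 hpi and 121 ± 5.89 CPM in controls and 275 ± 65.2 CPM after injury at 12 hpi, and its difference was 0.54 ± 0.45 (adjusted p = 1.00). Groups of sox11b were apart at 6 hpi and overlapped at 12 hpi, with levels of 64.4 ± 6.7 CPM in controls and 79 ± 1.81 CPM after injury at 6 hpi and 94.8 ± 20 CPM in controls and 164 ± 78 CPM after injury at 12 hpi, with a difference of 1.29 ± 0.42 (adjusted p = 0.884). For jun the difference was 0.12 ± 0.27 (adjusted p = 1.00), and for stat3 0.42 ± 0.66 (adjusted p = 1.00), neither past the threshold. The reporter driver isl2b had a difference of -1.69 ± 1.08 (adjusted p = 1.00).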

How the data were processed

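RNA of sorted cells was measured in 18 libraries, of which the 6 of 24 hpi were compared. The authors deposited 1 table per time point with 25281 genes and whole-number counts of reads per gene and library, not normalized per the file headers. The genome build is GRCz11 per the submitters' processing notes. The aligner, the counting tool, the annotation and the use of strand are not given in the sources used here, so overlapping or antisense genes and paralogs have uncertain values. The deposited fold changes, p-values and normalized columns were not used, and 0 count columns lacked a sample. List members were matched by symbol or identifier, and the name table gave symbols for 23499 identifiers.

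Software was edgeR 4.0.16, DESeq2 1.42.0 and limma 3.58.1 under R 4.3.3. The main analysis applied the quasi-likelihood test of edgeR with TMM factors on genes passing filterByExpr (minimum count 10), with 1 mean per group over all 18 libraries and 12 residual degrees of freedom. Adjustment over the 17527 genes followed Benjamini and Hochberg, with a threshold of 0.05. CPM values were scaled with TMM factors, and log2 CPM used a prior count of 2. A standard error is the log2 change divided by the root of its F statistic. On simulated counts for this comparison with 17527 genes, 87% of genes changed 4-fold and 98% of those changed 16-fold were recovered, with 3 false calls. The changed genes all had an average log2 CPM of at least 3. The simulation held no differences in cell content and no other group effects. It therefore does not say what share of real changes the test recovers in these libraries. Counting precision does not cover the sampling of 1000 cells, as reads carry no molecular identifiers. Results for 2 genes are not reported here. No set test was run on the gene lists, which are described by counts and medians.

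Named genes were the 15 higher and 15 lower with the smallest p, an average log2 CPM of at least 3, non-overlapping groups and no library above 90% of the higher group; 9 fixed genes; and up to 4 genes per list with an unadjusted p under 0.05 and an average log2 CPM of at least 1. Other genes were chosen after their values were seen, among them gap43, atoh7, tubb5, tuba2, fosl1b, irx4a and further markers. The comparison, the lists and the rule were chosen with earlier results of these data known. Promoter motifs were planned and not run, as no promoter sequence was at hand. Alternatives were DESeq2, other size factors, no filter, limma voom, a replicate block, library set, the 6 libraries alone, and each 24 hpi library left out.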

Additional observations from a re-analysis of the deposited data

How the results depend on the processing

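The number of genes called at 24 hpi was 0 with DESeq2's size factors in edgeR, with limma voom and with library set (the run of sample numbers in the library names) as a covariate. It was 2 without the filter on low counts (emb and vmp1), 210 with DESeq2, 50 on the 6 libraries alone and 517 with DESeq2 on these 6. Leaving out single libraries gave 0 to 4 calls, the most without injured replicate 2 (cbx7a, vmp1, atf3 and txn) and 1 without control replicate 3 (vmp1). On the 6 libraries alone, an alternative chosen after seeing the data, it gave 0 to 243, with 14 without injured replicate 2, 1 without injured replicate 1 (emb) and 0 without each control in turn. Leaving out a library takes 1 of 3 from its group; otherwise the cause of these differences in count was not tested. The difference from 6 and 12 hpi gave 20 calls with DESeq2 and 0 with each other alternative.

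The labels' replicate numbers do not say that samples share a fish, and same-numbered 24 hpi libraries did not deviate together (correlations of -0.0273, 0.0251 and -0.181 over 8774 genes). Correlations were 0.248, 0.386 and 0.170 at 6 hpi and -0.224, -0.0717 and 0.168 at 12 hpi, so not every same-numbered pair was above 0.1. With time point and number as a replicate block, 0 genes were called for both the injury effect (smallest adjusted p 0.0536) and the difference from earlier times, and 0 on the 6 libraries (smallest adjusted p 0.0653).

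The ganglion cell score difference was -1.07 with DESeq2's factors, -1.12 with a prior count of 0.5, -1.36 within the library set that holds 2 libraries of each group, and -1.29 to -0.86 without single libraries. The rod and cone difference was 3.74 points within that set, 3.68 to 3.98 without single libraries, and 1.60 with opsins left out of the list, as the list is then smaller. Of named genes, cd74a ran from -12.11 to 2.31 without single libraries, and reversed (2.31, adjusted p = 0.971) without control replicate 1, which held nearly all its counts. In addition, 161 other values of single genes passed the threshold under an alternative and 1696 kept their side.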

Other observations

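The values of the next 3 genes, all called by DESeq2, were known when they were picked. The gene utp3, of the small subunit processome, had 17.6, 23 and 24.1 CPM in the controls and 29.9, 34.8 and 39.2 CPM after injury, above all 9 controls (log2 change 0.68 ± 0.17, adjusted p = 0.222, DESeq2 adjusted p = 0.0185). For rrp12, an export factor of preribosomes, the values were 13.2, 18 and 17.8 CPM in the controls and 37.8, 26.1 and 36.6 CPM after injury, also above all 9 controls (log2 change 1.04 ± 0.25, adjusted p = 0.222, DESeq2 adjusted p = 0.0207). The small nucleolar ribonucleoprotein core gene nop56 had 88, 103 and 95.9 CPM in the controls and 122, 122 and 126 CPM after injury (log2 change 0.36 ± 0.11, adjusted p = 0.301, DESeq2 adjusted p = 0.0414). Of the 3 differences that of nop56 is the smallest and that of rrp12 the largest, and in all 3 genes the groups do not overlap.

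A further 5 genes called on the 6 libraries alone were picked in the same way. The homeobox gene hmx4 had 61.2, 63.2 and 66.1 CPM in the controls and 20.1, 24.6 and 28.2 CPM after injury (log2 change -1.39 ± 0.40, adjusted p = 0.285, adjusted p = 0.0270 on the 6 libraries and 0.0414 with DESeq2). The cofactor of homeobox proteins meis2b had 69, 75.8 and 47.8 CPM in the controls and 13.2, 15.9 and 21.9 CPM after injury (log2 change -1.92 ± 0.73, adjusted p = 0.486). Its adjusted p was 0.0332 on the 6 libraries and 0.297 with DESeq2, and the 6 and 12 hpi controls ran from 7.34 to 77.5 CPM, around all injured values. The signalling adaptor ywhag1, of the 14-3-3 family, had 155, 133 and 136 CPM in the controls and 27.5, 18 and 37.9 CPM after injury (log2 change -2.35 ± 0.67, adjusted p = 0.275). Its adjusted p was 0.0238 on the 6 libraries and 0.0496 with DESeq2, and the lowest 6 or 12 hpi control of 28.5 to 131 CPM lay among the injured values. All 24 hpi controls of ywhag1 lay above that range. The adenylate kinase ak5 had 30.2, 41.4 and 33 CPM in the controls and 6.98, 3.87 and 6.17 CPM after injury (log2 change -2.62 ± 0.62, adjusted p = 0.213, adjusted p = 0.0238 on the 6 libraries and 0.00247 with DESeq2). On the higher side, the zinc finger gene sall1b was near absent from controls, with 0.26, 0.164 and 0.207 CPM in the controls and 7.51, 3.27 and 18.9 CPM after injury (log2 change 5.53 ± 1.95, adjusted p = 0.433). It was called on the 6 libraries (adjusted p = 0.0357) and not by DESeq2 (adjusted p = 0.294).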
